A study of Rattus norvegicus with 6 samples.

Results

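Gal, Calcb and Tac3 encode the precursors of the neuropeptides galanin, beta-CGRP (the beta form of calcitonin gene-related peptide) and neurokinin B. The 3 genes were taken from the 25399 listed in the files by their symbols, and each symbol matched 1 identifier (Gal ENSRNOG00000015156, Calcb ENSRNOG00000011074, Tac3 ENSRNOG00000004229). They were chosen by measured values of these data, the UMIs and the share of positive cells that showed Gal in oligodendrocyte-lineage cells of the infarction libraries. Their levels are therefore described here with no test, and tests are given for other genes. A grouping of the 3 as peptide genes of glial cells held in part. Gal and Calcb lay mainly in 1 small unnamed cluster that grouped with the oligodendrocyte lineage. Tac3 had 0 UMIs (unique molecular identifiers, the counted transcripts) in that cluster, in precursor-like cells and in mature oligodendrocyte-like cells of all 6 libraries.

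Gene expression was measured in single cells of the brain of Sprague Dawley rats with droplet libraries of transcript 3′ ends, 3 labelled sham and 3 labelled pontine infarction, and the series title names the pons. All 6 carry the label postnatal day 21. The sources used here do not give the sex of the rats, how the infarction was made or the time after it, and the labels do not tie each library to its own animal, so p-values measure the spread between libraries. After filtering, 37843 cells were kept. The sham libraries had 5904, 6327 and 6548 of them and the infarction libraries 5868, 7255 and 5941, from libraries of 56416475 to 69924334 UMIs. Of 37666 barcode sequences among kept cells, 177 occurred in more than 1 library.

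Neuropeptides are cut from larger precursors by proprotein convertases and carboxypeptidase E, stored in dense-core granules and released to act on G protein-coupled receptors. Galanin acts on Galr1 to Galr3, neurokinin B on Tacr3, and the CGRP peptides on a receptor made of Calcrl and its partner Ramp1, whereas Calcrl with Ramp2 or Ramp3 binds adrenomedullin. Galanin is best known from neurons, where injury of an axon raises it strongly, and Vgf, which encodes another granule protein and peptide source, is also known as an injury-responsive and neurotrophin-responsive gene.

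The promoters are shown of Gal and of the 3 other genes whose summed levels followed it most closely across cell populations and libraries. Each sequence is the 250 bases before the RefSeq start on the GRCr8 assembly, written in the direction of the gene, with motif matches in capitals. Gal lies on the minus strand at chr1:210084573-210084822, Vgf on the minus strand at chr12:25277021-25277270, Ucn2 (urocortin 2) on the plus strand at chr8:118515861-118516110 and Calca (the alpha CGRP gene) on the minus strand at chr1:178317530-178317779.
Gal: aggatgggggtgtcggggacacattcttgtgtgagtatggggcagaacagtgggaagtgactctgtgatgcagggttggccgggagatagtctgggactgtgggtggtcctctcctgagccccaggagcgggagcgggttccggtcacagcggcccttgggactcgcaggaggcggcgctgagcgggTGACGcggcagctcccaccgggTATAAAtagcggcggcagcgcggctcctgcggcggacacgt
Vgf: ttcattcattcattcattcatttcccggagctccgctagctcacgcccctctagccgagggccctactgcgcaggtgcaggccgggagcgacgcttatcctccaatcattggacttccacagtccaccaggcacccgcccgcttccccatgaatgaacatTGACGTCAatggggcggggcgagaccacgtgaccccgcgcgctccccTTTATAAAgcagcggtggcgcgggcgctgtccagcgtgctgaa
Ucn2: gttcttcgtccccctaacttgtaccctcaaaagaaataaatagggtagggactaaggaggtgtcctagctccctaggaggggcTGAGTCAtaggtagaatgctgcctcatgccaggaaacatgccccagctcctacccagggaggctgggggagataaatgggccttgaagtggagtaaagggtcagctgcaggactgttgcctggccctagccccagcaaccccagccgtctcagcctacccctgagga
Calca: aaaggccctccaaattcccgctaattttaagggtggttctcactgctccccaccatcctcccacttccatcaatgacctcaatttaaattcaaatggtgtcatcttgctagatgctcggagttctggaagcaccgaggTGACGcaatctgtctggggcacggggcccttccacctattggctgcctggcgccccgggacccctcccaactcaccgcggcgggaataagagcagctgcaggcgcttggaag

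Both strands were searched for the cyclic AMP response element TGACGTCA, its core TGACG, the AP-1 motif TGANTCA and the TATA motif TATAAA. The full response element was in the Vgf window, 90 to 83 bases before the start, where it also holds the core on both strands, and 1.59% of 33469 RefSeq rat promoter windows of this length held it. The core was in the Gal window at 63 to 59 bases and in the Calca window at 112 to 108 bases before the start, and 18.2% of windows held it. The AP-1 motif was in the Ucn2 window at 167 to 161 bases, and 6.34% of windows held it. TATAAA stood 41 to 36 bases before the start of both Gal and Vgf, with a further overlapping match on the opposite strand of Vgf, and 12.9% of windows held it. These matches describe the letters in the windows and say nothing of binding. The promoter table held 4 of the 6 genes looked for, and Calcb and Tac3 were not among them.

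Gal was close to absent from sham libraries and was concentrated in a small set of cells of each infarction library. Over all kept cells it had 9, 23 and 11 UMIs in the sham libraries, against 2046, 2181 and 1255 in infarction 1 to 3, or 0.174, 0.366 and 0.216 against 33.6, 35.1 and 20.1 per 1000000 UMIs (CPM). The groups did not overlap, but Gal had been chosen for its presence in infarction cells. The share of all genes without such overlap over all kept cells was not counted. Of the UMIs in the infarction libraries, 1732, 2031 and 1147 came from 1 cluster, which is 84.7%, 93.1% and 91.4% of each library's Gal. That cluster held 25, 35 and 22 cells of infarction 1 to 3, which was 0.426%, 0.482% and 0.370% of their kept cells, and only 1, 2 and 1 cells of sham 1 to 3.

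The cluster was 1 of 12 sub-clusters of 901 cells that grouped with the oligodendrocyte lineage, and the 3 peptide genes had been left out of the clustering. Its leading genes were Vgf, Gap43 (a growth cone protein), Gad2 (a GABA-synthesising enzyme), Il33, Dclk1, Fam89a, Syt4, Tnfaip6 and Ptprn. It passed 8 precursor markers, namely Pdgfra, Ptprz1, C1ql1, Olig1, Olig2, Sox10, Tnr and Bcas1, and 4 neuron markers. It was left unnamed because a neuron marker, Gad2, and no precursor marker stood among its 10 leading genes, and it is called the Vgf- and Gap43-led cluster. Its size in each group is a description, since it was formed from the expression of these same cells.

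Marker lists of other cell types stood at different levels there. The summed level of the 15 precursor markers was 1502 to 1747 CPM in its infarction cells, against 11848 to 13645 CPM in sham precursor-like cells. Mature oligodendrocyte-like cells had 1980 to 4674 CPM of these precursor markers over the 6 libraries. The summed level of 13 neuron markers was 698 to 1024 CPM against 377 to 552 CPM in sham precursor-like cells. Tubb3, Gad1 and Gad2 were higher and 6 others lower in the cluster. Snap25, a synaptic vesicle fusion protein of neurons, was at 13.96, 33.0 and 36.1 CPM in infarction 1 to 3, against 3322, 3620 and 3423 CPM in sham neuron-like cells. The vesicular glutamate transporters Slc17a6 and Slc17a7 had 0 UMIs in its infarction cells. Neutrophil markers summed to 2.77 to 19.9 CPM, with 6, 7 and 10 of 11 at 0. Macrophage markers summed to 1258, 1268 and 1365 CPM in its infarction cells, against 560, 362 and 324 CPM in sham precursor-like cells, with 5, 5 and 6 of 11 at 0. Of these 11, Fabp5, Spp1 and Lgals3 lay above every sham precursor-like library in all 3, and Arg1 lay below. Cd163, F13a1 and Ms4a7 had 0 UMIs in the infarction cells of the cluster. Over 13821 genes 11.4% lay above and 33.8% below. Mature oligodendrocyte markers summed to 1304, 1086 and 1909 CPM against 4264, 2407 and 3661 CPM. The part of these markers in the Gal counts was not tested. The median UMI count was 22274, 17282 and 11228 in infarction 1 to 3, the median share of mitochondrial UMIs 5.68% to 6.22%, and the highest doublet scores 0.0900, 0.0814 and 0.145, under the limit of 0.25. The part of depth in these Gal counts was tested only by thinning, given next.

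Within the cluster most infarction cells held Gal and some held a great deal of it. Gal was detected in 23 of 25 cells of infarction 1 (92.0%, exact 95% binomial interval 74.0% to 99.0%), in 31 of 35 of infarction 2 (88.6%, 73.3% to 96.8%) and in 16 of 22 of infarction 3 (72.7%, 49.8% to 89.3%). These intervals cover counting error only. After thinning each cell to 2000 UMIs the shares were 83.3%, 80% and 62.5%. The summed level was 3454, 3726 and 3182 CPM, 3454 ± 272 CPM (SD, n = 3). Gal ranked 46th, 48th and 59th by UMIs of the 10367, 10355 and 9967 genes detected in these cells, and the 3 libraries lay close together. The 4 sham cells of the cluster held 0 Gal UMIs, too few to show a level.

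The cells differed widely among themselves. The median cell held 42, 24 and 5 Gal UMIs in infarction 1 to 3 and the highest 234, 229 and 285. Cells without Gal numbered 2, 4 and 6, cells with 1 to 9 UMIs 3, 9 and 7, and cells with at least 10 UMIs 20, 22 and 9. Over the cells with at least 2000 UMIs the median level was 3160, 2966 and 1908 CPM and the highest 14695, 15967 and 8385 CPM. Depth went with the count. Cells with at least 10 Gal UMIs had a median of 25173, 23056 and 29082 UMIs, the others 3201, 2562 and 3610, and across the 82 infarction cells Gal UMIs and total UMIs had a Pearson r of 0.58 as a description. A cell's share of Gal and its share of Vgf had an r of 0.045 over the same 82 cells.

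**Figure D1:**
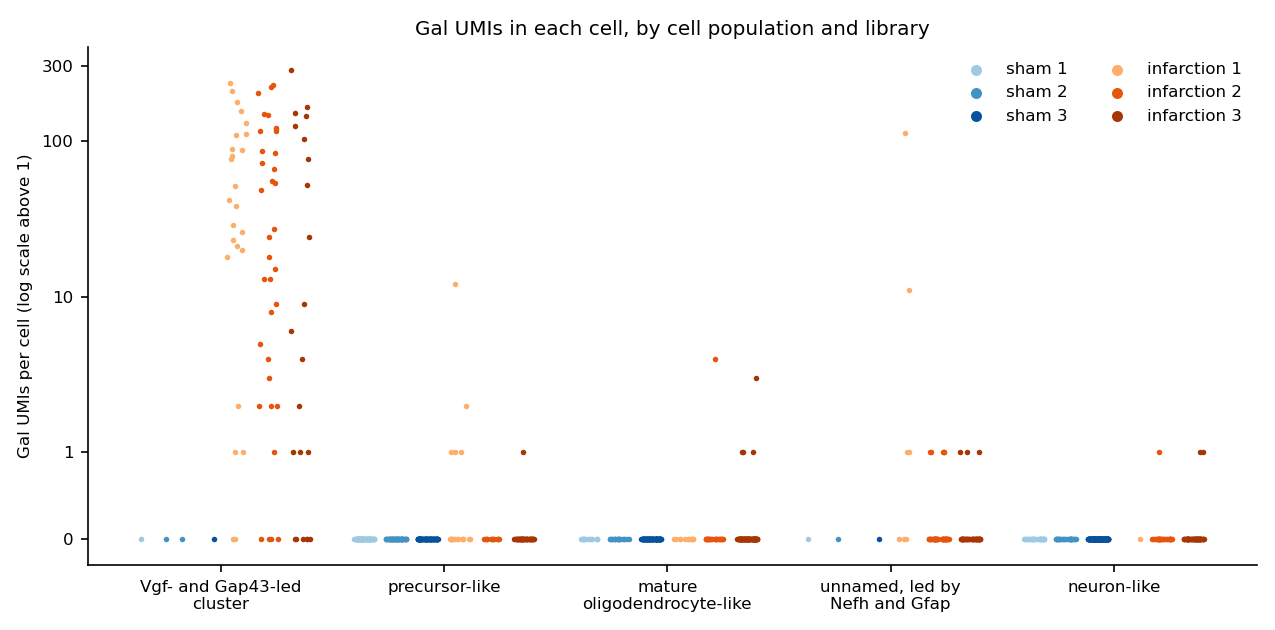
Gal UMIs per cell (log scale above 1) in the Vgf- and Gap43-led cluster, in precursor-like, mature oligodendrocyte-like and neuron-like cells and in the unnamed cluster led by Nefh and Gfap, by library, with each point a cell. The cells with the most Gal stood in the cluster in all 3 infarction libraries, with highest values of 234, 229 and 285, and the sham cells shown stood at 0.

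Outside this cluster high Gal was rare. Of 56 kept cells with at least 10 Gal UMIs, 51 were in the cluster and 5 elsewhere, all in infarction libraries. The 5 were 2 cells of an unnamed cluster led by Nefh and Gfap in infarction 1 (11 and 113 UMIs), 1 precursor-like (12) and 1 microglia-like cell (16) of infarction 1, and 1 fibroblast-like cell of infarction 2 (28). None was among the cells removed for their doublet score.

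Named cells of the oligodendrocyte lineage held little Gal. In precursor-like cells it was detected in 0 of 82, 0 of 59 and 0 of 86 cells of sham 1 to 3, which allows shares of up to 3.66%, 5.08% and 3.49%. In infarction 1 to 3 it was detected in 5 of 21 cells (23.8%, interval 8.22% to 47.2%, 17 UMIs), 0 of 14 (a share of up to 21.4%) and 1 of 50 (2%, 1 UMI). The share thus came from 1 library, and 4 of its 5 positive cells were in a sub-cluster that also carried neutrophil transcripts, described with the tests. In mature oligodendrocyte-like cells, which make myelin, it was 0 of 15, 0 of 20 and 0 of 97 in sham and 0 of 13, 1 of 26 (4 UMIs) and 4 of 100 (6 UMIs) in infarction libraries. Neuron-like cells held 0 in 32, 30 and 179 sham cells and 0 of 1, 1 of 31 and 2 of 62 infarction cells.

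Free RNA can add a low level to a droplet, and its level was not measured here. Neutrophil-like cells, which are not known to make Gal, held it in 40 of 2051 (1.95%), 7 of 1404 (0.499%) and 6 of 975 cells (0.615%) of infarction 1 to 3, at median depths of 2202, 1612.5 and 1902 UMIs. Mature oligodendrocyte-like infarction cells had median depths of 2914, 1182.5 and 2054 UMIs. Microglia-like infarction cells, which were deeper, held Gal in 5.70%, 4.44% and 4.81% of cells, and in 0.968%, 0.935% and 0.881% after thinning to 2000 UMIs. The ratio of Gal to Vgf differed between cell classes. The cluster had 1.13, 0.977 and 0.895 Gal UMIs per Vgf UMI in infarction 1 to 3, and all cells outside the lineage had 1.24, 1.21 and 1.12, at 2.84, 2.28 and 1.57 Gal CPM. Microglia-like infarction cells had 2.62, 3.92 and 2.67 Gal UMIs per Vgf UMI, macrophage-like cells 1.10, 0.885 and 0.971, and neutrophil-like cells 0.618, 0.538 and 0.545. Microglia-like cells held 4.90, 4.47 and 4.39 Gal CPM against 1.07, 0.857 and 0.972 CPM in macrophage-like cells, whose thinned shares were 0.356%, 0.215% and 0.293%. The highest of the 3 microglia-like clusters, led by the cell cycle genes Mki67 and Top2a at a median of 17258 UMIs, held it in 28 of 368, 24 of 328 and 22 of 274 cells (7.61%, 7.32% and 8.03%), and in 0.838%, 1.67% and 1.53% after thinning. The unnamed cluster led by Nefh and Gfap held Gal in 4 of 7, 5 of 51 and 3 of 47 infarction cells, with 126, 5 and 3 UMIs. The part of free RNA in these values was not tested. In sham libraries the few UMIs lay in fibroblast-like cells (1 of 149, 4 of 84 and 3 of 52), astrocyte-like (8 of 834), smooth muscle-like and other cells.

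**Figure D2:**
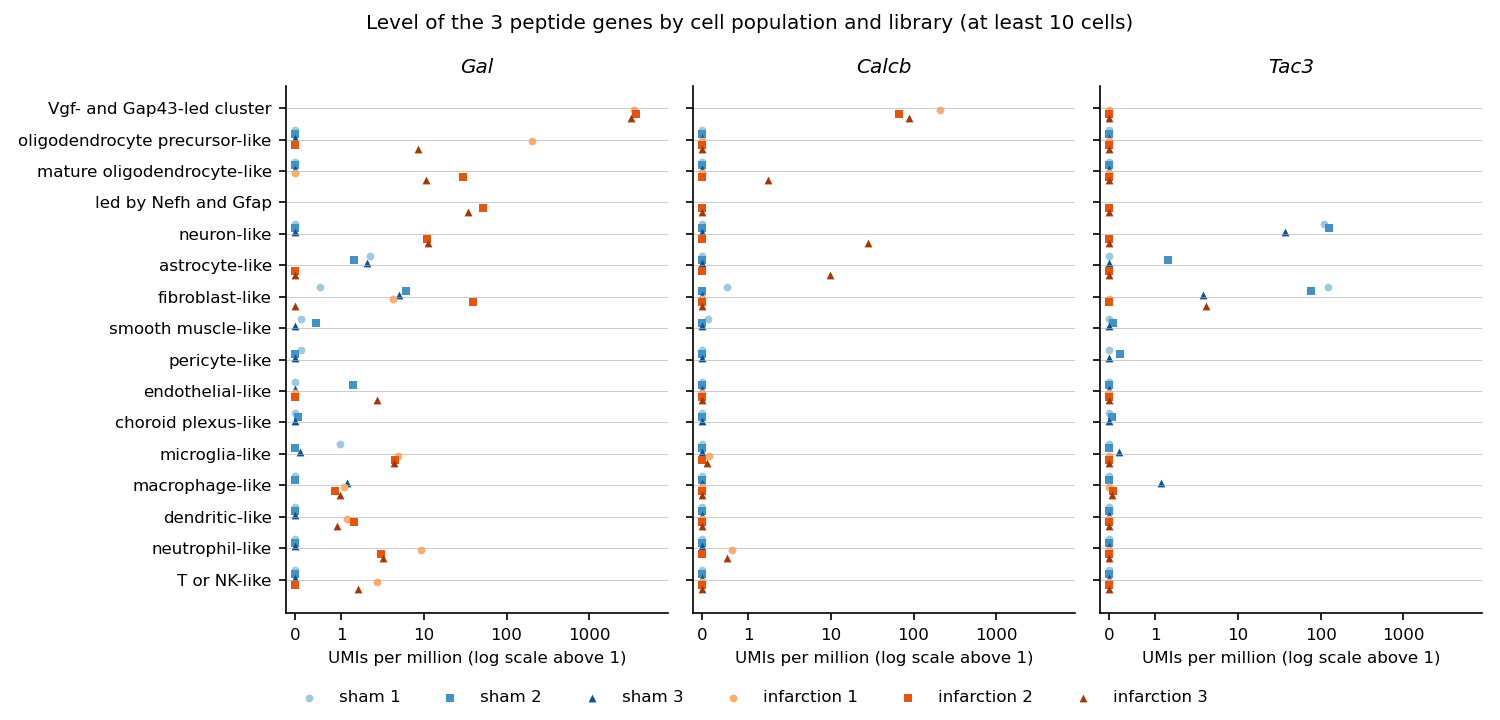
Level of Gal, Calcb and Tac3 in CPM (log scale above 1) by cell population, with each point a library that had at least 10 cells of it. Gal stood at 3182 to 3726 in the Vgf- and Gap43-led cluster, Calcb was highest there at 66.0 to 211, and Tac3 was highest in sham neuron-like and fibroblast-like cells.

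Calcb was seen in the same cluster at a much lower level and in fewer cells. It had 4, 0 and 0 UMIs in the sham libraries, against 112, 36 and 41 in infarction 1 to 3, of which 106, 36 and 32 were in the cluster (94.6%, 100% and 78.0%). There it was detected in 7 of 25 (28.0%), 5 of 35 (14.3%) and 2 of 22 cells (9.09%), at 211, 66.0 and 88.8 CPM, 122 ± 78.2 CPM (SD, n = 3). Single cells held up to 64, 24 and 27 UMIs, so a handful of cells made up the count. Infarction 1 was highest and the other 2 libraries were close to each other. Precursor-like cells held 0 Calcb UMIs in all 6 libraries, and of the other classes neuron-like cells of infarction 3 had the most, 5 UMIs in 4 of 62 cells.

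Calca, the alpha CGRP gene and a relative of Calcb, was present in the same cluster. It was at 71.8, 53.2 and 47.2 CPM in the cluster in infarction 1 to 3, against 4.01, 0 and 0 CPM in sham precursor-like cells. Because the 2 genes share much of their sequence, how their reads were divided is uncertain. Of the 82 infarction cells of the cluster, 70 held Gal, 70 Vgf and 64 both, 14 held Calcb, 19 Calca and 11 both. All 14 cells with Calcb and all 19 with Calca also held Gal. In each of the 3 libraries Calcb was higher in cells with at least 10 Gal UMIs, at 221, 76.3 and 111 CPM, than in the rest, at 0, 11.6 and 0 CPM, which were shallower.

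Tac3 was counted mainly in the sham libraries and in other cells. It had 242, 113 and 37 UMIs in the sham libraries, against 2, 3 and 5 in infarction 1 to 3. The share of all genes with library totals separated in this way was not counted. In fibroblast-like cells it was detected in 27 of 149 (18.1%), 12 of 84 (14.3%) and 2 of 52 cells (3.85%) of sham 1 to 3, at 124, 75.6 and 3.74 CPM. Sham 3 stood far below the other 2. In infarction 1 to 3 the fibroblast-like cells with Tac3 were 0 of 14, 0 of 24 and 1 of 10, and the 2 zeros allow shares of up to 21.4% and 12.5%, so that a share like that of sham 2 was not detectable as different in infarction 1.

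Neuron-like cells were the second place of Tac3, which is known from subsets of neurons. They held it in 2 of 32, 2 of 30 and 7 of 179 cells of sham 1 to 3, at 109, 128 and 37.0 CPM. In sham 3 they had 31 of the 37 UMIs, whereas fibroblast-like cells had 227 of 242 in sham 1 and 88 of 113 in sham 2. Neuron-like cells of the infarction libraries held it in 0 of 1, 0 of 31 and 0 of 62. The 4.84% limit of the last lies above the 3.91% of sham 3 and below the 6.25% and 6.67% of sham 1 and 2. Different clusters held most neuron-like cells of the 2 groups. One cluster held 26, 27 and 155 sham cells and 0, 1 and 2 infarction cells, with Tac3 in 1 of them. Sub-cluster 2 of the lineage held 1, 30 and 59 infarction cells and 1, 0 and 15 sham cells. Sub-cluster 11 held 5, 3 and 9 sham cells and 1 infarction cell, and Tac3 was in 2, 1 and 6 of its sham cells. Fewer such cells and less transcript per cell cannot be told apart in the library totals, since fibroblast-like cells numbered 149, 84 and 52 in sham and 14, 24 and 10 in infarction libraries.

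Genes whose levels went with each peptide gene were ranked by Pearson r of log2(CPM + 1) over 88 sums of 21 cell populations by library, among 10511 genes. Sums of a library share its depth and free RNA, and the values are descriptions. For Gal the 10 closest were Vgf (r = 0.84), Ucn2 (0.80), Calca (0.78), the cytokine gene Il11 (0.74), Gad2 (0.74), Mastl (0.73), Calcb (0.72), Troap (0.70), Plk1 (0.70) and Melk (0.69). Mastl, Troap, Plk1 and Melk are genes of mitosis. Without the sums of the Vgf- and Gap43-led cluster the r of Gal was 0.67 with Vgf, 0.62 with Ucn2 and 0.44 with Calca. It was then 0.38 with Il11, 0.50 with Gad2, 0.15 with Calcb and 0.55 to 0.61 with the mitosis genes. For Calcb the closest were the melanin-concentrating hormone receptor gene Mchr1 (0.86), Wnt10a (0.72), Gal (0.72), Vgf (0.70) and Gad2 (0.67). Without the sums of the cluster these values were 0.60, 0.31, 0.15, 0.30 and 0.32. For Tac3 the closest were Vegfd (0.72), Tcf21 (0.72), Medag (0.71), Cemip (0.69) and Wfdc10a (0.68). Of these, Vegfd, Tcf21, Cemip and Wfdc10a had 0 CPM in the cluster.

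The levels of whole gene lists in the cluster were set beside those of sham precursor-like cells, as a description with no test, since the cluster was formed from these genes. Of 13821 genes, 11.4% lay above all 3 sham precursor-like libraries in all 3 infarction libraries of the cluster and 33.8% lay below. Of 16 genes of peptide processing and dense-core granules, 3 lay above and 8 below. Vgf was at 3055, 3814 and 3556 CPM against 10.0, 2.49 and 3.21 CPM, and Scg2, a granin, at 239, 347 and 103 CPM against 2.01, 2.49 and 0 CPM. Ptprn, a granule membrane protein, was at 357, 266 and 291 CPM against 251, 162 and 251 CPM. These are the 3 that lay above.

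Most of the other granule genes were low. The convertase gene Pcsk1 was at 0, 0 and 2.77 CPM, Pcsk2 at 1.99, 0 and 5.55 CPM against 80.3 to 112 CPM in sham precursor-like cells, and Pcsk1n at 0. Pam (peptide amidation), Scg3, Scg5, Chga, Chgb, Cadps and Cadps2 (granule release) also lay below. Cpe, which trims cut peptides, was at 598, 648 and 547 CPM against 610, 681 and 440 CPM, with overlap. Granule genes thus did not move together: Vgf and Scg2 stood high where the chromogranins and Pcsk2 stood low.

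**Figure D3:**
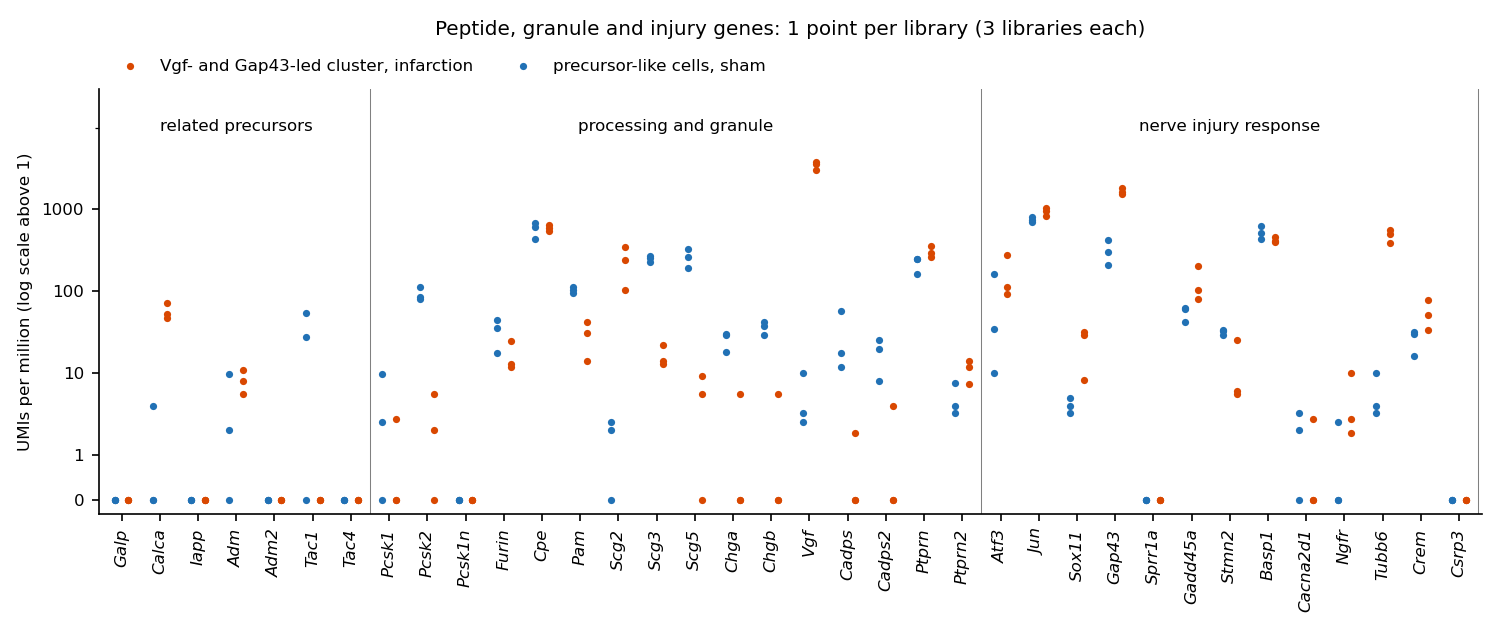
Levels in CPM (log scale above 1) of 7 related precursor, 16 processing and granule and 13 nerve injury genes in the Vgf- and Gap43-led cluster of infarction libraries and in sham precursor-like cells, with each point a library. Vgf (3055 to 3814) and Scg2 (103 to 347) lay far above the sham values and Pcsk2, Scg3 and Scg5 below.

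Few other peptide genes were present. Of the 34 other neuropeptide precursor genes in the files, 21 had 0 UMIs in the cluster, Npy, Sst and Nts among them, 0 lay above and 4 below. Vip, for vasoactive intestinal peptide, differed between libraries, at 0, 5.50 and 130 CPM in infarction 1 to 3. Of the 7 related precursors, Calca lay above and Galp, Iapp, Adm2, Tac1 and Tac4 had 0 UMIs.

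Of 13 genes of the nerve injury response, 6 lay above and 1 below. Gap43 was at 1532, 1844 and 1628 CPM against 299, 424 and 212 CPM, and Tubb6, a tubulin, at 391, 503 and 555 CPM against 4.01, 9.98 and 3.21 CPM. Jun, Sox11, Gadd45a and Crem were the others above, and Stmn2 lay below. Atf3, a transcription factor known from injured neurons, was at 275, 114 and 91.5 CPM against 10.0, 34.9 and 164 CPM, with overlap. All 19 cell cycle genes in the files lay above, for example Cdk1 at 500.5, 622 and 583 CPM against 0, 9.98 and 9.63 CPM. Of 10 precursor stage genes 0 lay above and 9 below, and of 11 committed precursor genes 0 above and 8 below. Pdgfra, the growth factor receptor of precursors, was at 140, 91.7 and 74.9 CPM against 1306, 1100 and 1644 CPM. Of 17 genes of gp130 cytokine signalling Osm and Il11 lay above and 5 below, and of 13 immediate early genes Fosl1 and Ier3 lay above and 5 below.

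The tests compared infarction with sham libraries within named classes, with edgeR's quasi-likelihood test on UMI sums and p-values adjusted over all genes by the Benjamini-Hochberg method, calling genes at an adjusted p under 0.05. In precursor-like cells sham 1 to 3 were compared with infarction 1 and 3, as infarction 2 had only 14 cells. Of 6073 genes 7.89% were higher and 4.91% lower in infarction. In mature oligodendrocyte-like cells sham 2 and 3 were compared with infarction 2 and 3. Of 4879 genes 1.8% were higher and 2.79% lower. Neither test could include Gal, Calcb or Tac3, of which 0 of 3 passed the filter on low counts.

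The precursor-like class was not the same cells in both groups. Of its sham cells 155 of 227 lay in sub-cluster 0, led by C1ql1 and Olig1, against 0, 2 and 3 cells of infarction 1 to 3. Sub-cluster 10, led by Bcas1 and Tnr, held 18, 4 and 12 infarction cells and 0 sham cells, and also passed 6 neutrophil markers. The 11 neutrophil markers summed to 12150, 18713 and 6248 CPM in precursor-like cells of infarction 1 to 3 and to 0, 0 and 3.21 CPM in sham 1 to 3. Macrophage markers summed to 3771, 3051 and 1890 CPM in infarction and 324 to 560 CPM in sham libraries, and their part in the tests was not tested. Without that sub-cluster the neutrophil markers summed to 152, 88.1 and 24.6 CPM, and 3, 10 and 38 infarction cells remained. Each result below is therefore also given without it, from 3 sham libraries and infarction 3 alone, whose spread is then assumed to be that of the sham libraries.

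Ramp1, the partner that makes Calcrl a CGRP receptor, fell in precursor-like cells. It was at 1423, 1310 and 870 CPM in sham 1 to 3 and at 35.9, 359 and 92.4 CPM in infarction 1 to 3, without overlap. The log2 change was -3.92 (SE 0.56, edgeR adjusted p = 0.000195), and -3.35 without the sub-cluster with neutrophil markers (edgeR adjusted p = 0.000111). The second value rests on infarction 3. Without the sub-cluster Ramp1 was at 0, 705 and 123 CPM in 3, 10 and 38 cells of infarction 1 to 3, and the 8 UMIs of infarction 2 came from 1 cell. Calcrl was at 323, 329 and 295 CPM in sham and 311, 44.9 and 151 CPM in infarction libraries, a log2 change of -0.17 (SE 0.42, edgeR adjusted p = 0.819). Ramp2 was at 173, 145 and 161 CPM against 71.8, 135 and 25.2 CPM, a log2 change of -1.54 (SE 0.51) that missed the threshold (edgeR adjusted p = 0.0578) and passed it without infarction 1 (-2.57, edgeR adjusted p = 0.0101) or with no filter on low counts (-1.80, edgeR adjusted p = 0.0116). Of the 10 receptor genes 3 were tested and 1 was called. Cells with both Calcrl and Ramp1 numbered 62 of 82, 48 of 59 and 37 of 86 in sham 1 to 3, and 2 of 21, 0 of 14 and 1 of 50 in infarction 1 to 3. Infarction cells were shallower, with median depths of 3994, 809.5 and 1276 UMIs against 6068, 6395 and 3054.

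In the Vgf- and Gap43-led cluster the CGRP receptor genes stood lower than in sham precursor-like cells and were still detected. Ramp1 was at 95.7, 73.4 and 144 CPM and Calcrl at 69.8, 69.7 and 27.7 CPM, and both were found in 9 of 25, 10 of 35 and 6 of 22 cells. Galr1, Galr3, Calcr, Tacr1, Tacr2 and Tacr3 had 0 UMIs there, and Galr2 was not analysed here.

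A single granule gene and some injury genes passed the test in precursor-like cells, and neutrophil transcripts moved with them. Of 9 tested granule genes 1 was called, Vgf, at 10.0, 2.49 and 3.21 CPM in sham and 383, 89.8 and 33.6 CPM in infarction libraries (log2 change 5.32, SE 1.25, edgeR adjusted p = 0.0475). Of the 32 Vgf UMIs of infarction 1, 30 came from 2 of the 18 cells of the sub-cluster, and infarction 3 had 4 Vgf UMIs. The call thus leans on 2 cells of 1 library. With RLE scaling Vgf missed the threshold (edgeR adjusted p = 0.0632). Without the sub-cluster Vgf was too low to test, at 304, 176 and 36.9 CPM in infarction 1 to 3. Of 7 tested injury genes Gadd45a (4.54) and Crem (3.83) were called higher and Basp1 (-1.84) lower. Without the sub-cluster Gadd45a turned to -0.63 (edgeR adjusted p = 0.680) and Crem was at 1.12 (edgeR adjusted p = 0.449), while Basp1 kept its call at -1.59 (edgeR adjusted p = 0.0409). This Basp1 value rests on infarction 3, at 185 CPM without the sub-cluster, whereas infarction 2, outside the test with 10 cells, had 617 CPM, within the 440 to 636 CPM of the sham libraries, and infarction 1 had 0 in 3 cells. Basp1 missed the threshold without sham 1 and without sham 2 (edgeR adjusted p = 0.0562 and 0.0579). Neutrophil-like infarction cells themselves held Gadd45a at 1616 to 2166 CPM and Crem at 611 to 647 CPM.

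The other lists in precursor-like cells held both genes that kept their call and genes that did not. Of 8 tested immediate early genes Ier3 (5.30) and Junb (1.58) were called higher, and they were at -0.53 and -0.052 without the sub-cluster. Of 5 tested gp130 genes Stat3 (1.54) was called, and missed the threshold without it (1.43, edgeR adjusted p = 0.0830). Of 7 tested cell cycle genes Mcm6, a replication helicase subunit, was called at 2.33 and stood at 2.76 without the sub-cluster. The second value rests on infarction 3, where 12 Mcm6 UMIs lay in 2 of 38 cells. Hmgb2 was called at 1.59 and lost its call without the sub-cluster (1.35). Mcm6 missed the threshold without infarction 3 (edgeR adjusted p = 0.0752), Hmgb2 without infarction 1 (0.0594) and Stat3 without sham 1 (0.0544), and Junb lost its call without any of 4 libraries (0.0774 to 0.229). Of 7 tested precursor stage genes C1ql1, a secreted synaptic ligand made by precursors, fell by 2.52 on the log2 scale and by 1.91 without the sub-cluster (edgeR adjusted p = 0.00374). Of 9 tested committed precursor genes and of 7 mature stage genes 0 were called. The list medians were -0.45 for granule genes, 0.49 for injury genes, 0.64 for immediate early genes, 1.91 for cell cycle genes and -0.78 for precursor stage genes, against -0.07 over all genes tested.

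Mature oligodendrocyte-like cells had neutrophil markers at 0 to 53.9 CPM in all 6 libraries. Their sham cells lay mainly in sub-clusters 3 and 8 and their infarction cells mainly in sub-clusters 6 and 7. Fosb (log2 change 3.90), Fos (2.53) and Egr1 (2.59) were called higher, 3 of 7 tested immediate early genes, with a list median of 2.01 against 0.02 over all genes. Atf3 (2.66) and Tubb6 (3.88) were called higher, 2 of 6 tested injury genes. Of 6 granule genes Cpe rose by 2.03 (SE 0.47, edgeR adjusted p = 0.0363), from 17.5 ± 1.92 to 71.8 ± 39.1 CPM (SD, n = 2 and 2), and DESeq2 did not call it (adjusted p = 0.226). Among the mature stage genes Ermn (-1.84) and Ugt8 (-1.66), genes of myelin, fell, as did Enpp6 (-1.16) of the committed list. Fosb, Ermn and Ugt8 kept their call with each library left out. EdgeR calls were lost by Cpe (adjusted p = 0.0811) and Enpp6 (0.198) without sham 3, by Tubb6 (0.167), Fos (0.207) and Egr1 (0.0604) without infarction 2, and by Atf3 (0.375), Fos (0.106) and Enpp6 (0.118) without infarction 3. Of the 2 tested receptor genes Ramp3 was lower, at 91.3 and 162 CPM in sham 2 and 3 and 0 and 3.49 CPM in infarction 2 and 3 (log2 change -5.59, SE 0.64, edgeR adjusted p = 0.0015). Sham 1, with 15 cells and outside the test, had 0 CPM of Ramp3, and without sham 3 the call was lost (edgeR adjusted p = 0.241). Ramp1 was not called (1.04, SE 0.92, edgeR adjusted p = 0.646).

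Receptor genes of the peptides were also tested in 4 other classes with at least 20 cells in all 6 libraries. Endothelial-like cells (4.69% of 5964 genes higher and 5.3% lower) had Ramp2, the main partner of Calcrl in vessels, at 1155, 1405 and 1167 CPM in sham and 1534, 1838 and 1942 CPM in infarction libraries. It rose by 0.66 on the log2 scale (SE 0.14, edgeR adjusted p = 0.00722). Calcrl (1.03, SE 0.42, edgeR adjusted p = 0.200) and Ramp3 (-0.36, edgeR adjusted p = 0.914) were not called.

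In microglia-like cells (32.6% of 10386 genes higher and 32.1% lower) 4 of 4 tested receptor genes were called. Calcrl fell from 77.2, 104 and 87.0 CPM to 28.7, 31.96 and 39.3 CPM (log2 change -1.47) and Ramp1 from 3.88, 8.41 and 6.19 CPM to 1.08, 2.10 and 3.07 CPM (-1.71). Ramp2 rose by 1.35 and Ramp3 by 5.63, the latter from at most 0.175 to between 2.38 and 4.64 CPM. Macrophage-like cells (28.5% of 10282 genes higher and 26.3% lower) had lower Calcrl (-2.57), Ramp1 (-1.59) and Ramp2 (-2.04) and higher Ramp3 (3.00). Ramp3 lost its call without sham 1 or without sham 2 (edgeR adjusted p = 0.0769 and 0.0765). With shares this high among all genes, the calls of 4 receptor genes in these 2 classes are close to the background. In both classes different clusters held the cells of the groups: all sham macrophage-like cells were in cluster 17 (Cxcl13, Lyve1, Mrc1), and most of the infarction libraries' were in cluster 0 (Apoc1, Fabp4, Spp1). Sham microglia-like cells were mainly in cluster 4 (Tmem119, P2ry12) and infarction ones in clusters 11 (Ccl4, Cd83) and 12 (Mki67, Top2a). Cells of T or NK type (4.46% of 4668 genes higher and 2.34% lower) had Ramp3 at 6.22, 13.6 and 22.2 CPM in sham and 93.7, 160 and 66.1 CPM in infarction libraries (log2 change 2.98, SE 0.47, edgeR adjusted p = 0.00593), and Ramp1 was not called (-0.18, edgeR adjusted p = 0.888).

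**Figure D4:**
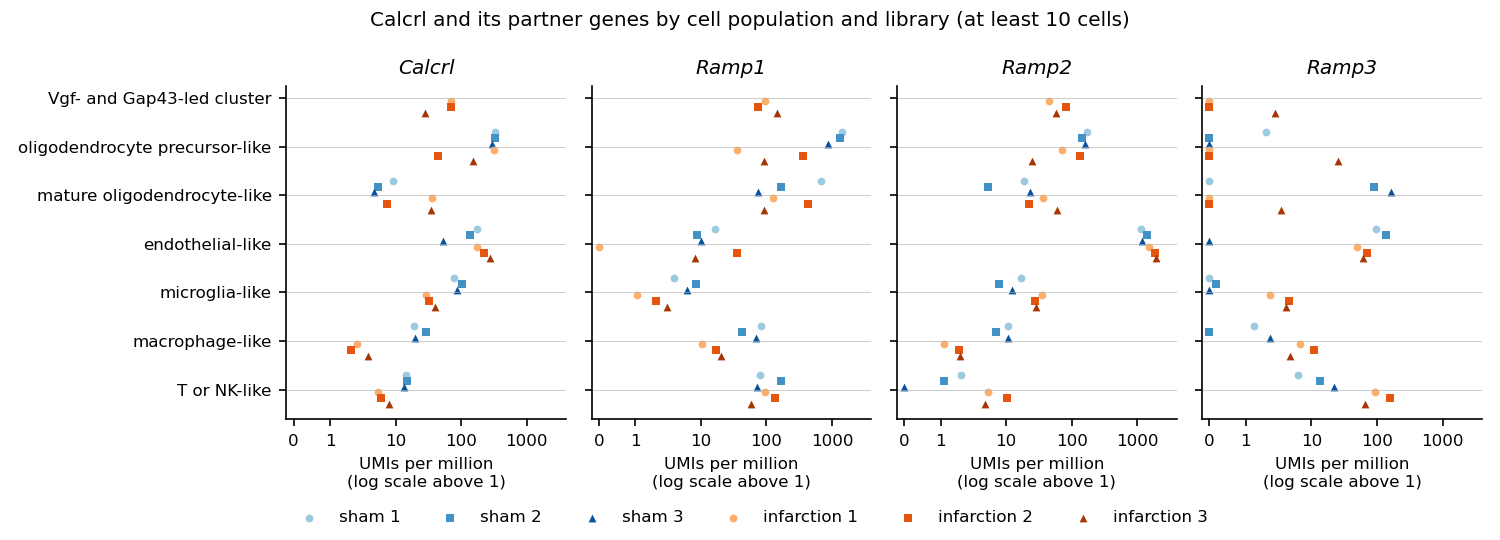
Levels of Calcrl, Ramp1, Ramp2 and Ramp3 in CPM (log scale above 1) by cell population, with each point a library. Of the populations shown, Ramp1 was highest in sham precursor-like cells, at 870 to 1423, and stood at 35.9 to 359 in those of the infarction libraries.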

How the data were processed

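The deposited files hold raw UMI counts for genes and cell barcodes. The submitters' processing notes name CASAVA 1.8, Cell Ranger 3.1.0 and Seurat 2.3.4 with no order. The lowest barcode held 500 UMIs. The genome build and its annotation were not given in the sources used here. Groups were taken from the sample labels. Cells were kept with at least 500 UMIs, 200 genes and at most 20% mitochondrial UMIs, which left 38685 of 44011 barcodes, and cells with a Scrublet score (scanpy 1.11.5) above 0.25, 1.82% to 2.72% per library, were removed. Of the genes, 19070 had a UMI in kept cells. The 2000 most variable genes, without the 3 members, were reduced to 30 principal components and clustered (Leiden, resolution 1.0, 15 neighbours, no correction between libraries), which gave 27 clusters and 14 named classes. The lineage cluster was clustered again at resolution 1.0.

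A cluster passed a marker held by 25% or more of its cells at 1 log2 unit or more above all other cells, with 5 CPM added to both. A name needed 3 markers, and no more markers of another class than of its own among the 10 leading genes. Precursor and mature markers were counted together to set the lineage cluster apart. A cluster of low depth with no own marker among its 10 leading genes was also left unnamed. Lineage sub-clusters with both Vgf and Gap43 among these genes made up the Vgf- and Gap43-led cluster. Names rest on no further evidence. CPM are UMIs per 1000000 of a sum, and limits of 0 are 3 counts of the total. Sums per library and class with at least 20 cells were fitted with edgeR 4.0.16 (glmQLFit, glmQLFTest, TMM, filterByExpr, group as the only term). The SE is the log2 change divided by the square root of F. The code was tested on simulated data. Members and lists were chosen with earlier results of these data known. Named genes were all receptors and related precursors, up to 4 called members with the smallest p of each other list, and the genes of highest likeness, among those reaching 20 CPM in 1 population. Alternatives were DESeq2 1.42.0, RLE factors, no filter, a replicate block and each library left out. For shares they were other cell filters, thinning and other resolutions of the first clustering. The alternatives in the 4 other classes and the fit without the sub-cluster with neutrophil markers were chosen after seeing the data. Gene identities came from the files, and promoters from RefSeq (GRCr8). The values of 1 list member are not reported here.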

Additional observations from a re-analysis of the deposited data

Results flagged for a closer look

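For 3 receptor genes every tested infarction library lay above every tested sham library in at least 1 class and below in another. The difference between classes was not tested. The share of all genes with such a pattern was not counted, so the 3 are not set apart from other genes. Of all genes 32.6% were called higher and 32.1% lower in microglia-like cells, and 28.5% and 26.3% in macrophage-like cells. Calcrl was higher in endothelial-like cells (log2 change 1.03, not called) and lower in macrophage-like (-2.57) and microglia-like cells (-1.47). Ramp2 was higher in endothelial-like (0.66) and microglia-like cells (1.35) and lower in macrophage-like (-2.04) and precursor-like cells (-1.54, not called). Ramp3 was higher in macrophage-like (3.00), microglia-like (5.63) and T or NK-like cells (2.98) and lower in mature oligodendrocyte-like cells (-5.59). The last rests on sham 2 and 3 against infarction 2 and 3. Sham 1, outside that test, had 0 CPM of Ramp3, below the 3.49 CPM of infarction 3, and without sham 3 the call was lost (edgeR adjusted p = 0.241).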

How the results depend on the processing

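Of 32 called results for named genes, 13 kept direction and call in every alternative that gave a value, 17 lost the call in some and 3 reversed in 1. Without the precursor-like sub-cluster with neutrophil markers Gadd45a was at -0.63, Ier3 at -0.53 and Junb at -0.052, and the counts in precursor-like cells were 160 higher and 119 lower, against 479 and 298. With 3 sham and 1 infarction libraries this fit has fewer samples. In the same class there were 721 higher and 628 lower genes with no filter, 181 lower with DESeq2, and 262 higher and 64 lower with the replicate number as a block. In mature oligodendrocyte-like cells the 88 higher and 136 lower genes became 181 and 274 with no filter and 245 and 316 with the replicate block. Same-numbered libraries had correlations of their deviations between -0.13 and 0.12 in 4 classes, so the numbers are not taken to pair them.

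Leaving out 1 library in turn gave 293 to 480 higher and 90 to 579 lower genes in precursor-like cells, 87 to 148 and 79 to 190 in mature oligodendrocyte-like cells, 164 to 344 and 170 to 282 in endothelial-like cells and 129 to 203 and 68 to 115 in T or NK-like cells. The lowest precursor counts, 293 and 90, came without sham 2, and the 579 without infarction 3. A lone library is assumed to vary like the others.

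The mean share of cells with Gal in the Vgf- and Gap43-led cluster, 84.4%, was 72.7% with no doublet removal. In mature oligodendrocyte-like cells, 2.62%, it was 5.47% with at most 10% mitochondrial UMIs, 6.91% at a Leiden resolution of 2.0, 1.62% at 2 or more Gal UMIs and 4.36% after thinning. Only the first clustering was changed in resolution, and the lineage cells were always clustered again at 1.0. At a first resolution of 0.5 the shares in the lineage did not change. The 23.8% of precursor-like cells in infarction 1 became 9.52% at 2 or more Gal UMIs, 10% after thinning and 11.1% with at most 10% mitochondrial UMIs. It rose to 30.8% at a Leiden resolution of 2.0 and to 32% with no doublet removal. In these 2 settings infarction 3 had 5% and 5.13%, against 2%. The causes of these shifts were not tested. Fits with at most 10% mitochondrial UMIs gave no value for lack of cells. Cells with and without Gal among precursor-like cells were not compared, as only 5, 0 and 1 cells held it. Depth limits the shares in shallow infarction cells.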
